A study of Mus musculus with 18 samples.

Results

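S0-Medium cells, an erythroid population sorted for a medium level of CD71 on the surface, were compared with S0-Low cells, sorted for a low level. The readout was 4sU-seq, in which living cells build 4-thiouridine (4sU) into the RNA they are making, and that new RNA is pulled out through a biotin tag and sequenced. The members are the 3 columns of the deposited count table labelled as S0 with low CD71 and the 3 labelled as S0 with medium CD71, which is 6 of 18 libraries. Of 54232 genes listed, 16555 passed the filter on low counts and were tested. Both populations came from the fetal livers of C57BL/6 embryos at e12.5 to e13.5, with no other genotype or treatment named. S0-Low cells were lineage-negative and Ter119-negative, with CD71 given as low in the titles and as negative in the marker labels, and the study describes them as stem and progenitor cells together with burst-forming erythroid progenitors. S0-Medium cells were lineage-negative, CD71-medium and Ter119-negative, and are described as early colony-forming erythroid progenitors (CFU-E). Lineage-positive cells were those stained for CD41, CD45R, CD3e, CD11b or Ly-6G/6C. After sorting, every population rested for 6 h in medium with serum and was labelled with 500 µM 4sU for 45 min, so the values describe transcription after a short culture. The labels do not say whether replicates were separate litters, so p-values measure a spread between libraries that may be partly technical. In the main fit that spread was estimated from the libraries of all erythroid populations of the series, not from the compared libraries alone.

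CD71 is the transferrin receptor, encoded by Tfrc, through which erythroid cells take up the iron that heme requires. In the fetal liver, multipotent progenitors first become burst-forming and then colony-forming erythroid progenitors, which depend on erythropoietin (Epo) and divide quickly. Surface CD71 climbs during this step, ahead of Ter119, the surface marker of the maturing erythroblasts that make haemoglobin and build the spectrin-based membrane skeleton of the red cell.

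Total counts were 35264717, 33587555 and 9452476 in S0-Low replicates 1 to 3, and 39515260, 37305360 and 28384407 in S0-Medium. Replicate 3 of S0-Low was therefore the shallowest library, and a gene at 0 there can still have been transcribed. Levels below are normalised counts, that is counts scaled to the mean effective size of the 15 erythroid libraries, and they are not corrected for gene length. S0-Medium replicate 1 stood apart from the other S0-Medium libraries by higher levels of progenitor and myeloid genes, and replicate 3 of both populations had the highest levels of many erythroid genes. In RNA from sorted pools, fewer cells of a type and less RNA per cell cannot be told apart.

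The sort itself was checked first. Tfrc (chr16:32608896-32632794, GRCm38) was at 8399, 12088 and 12756 normalised counts in S0-Low and at 15855, 23275 and 20684 in S0-Medium. The populations did not overlap, and the mean was 1.80-fold higher in S0-Medium, with a log2 fold change of 0.85 ± 0.31 (SE, n = 3 per population, edgeR unadjusted p = 0.014). Tfrc was thus transcribed in S0-Low as well. Cd34 (chr1:194938821-194961292), a surface marker of stem and progenitor cells, was at 4525, 2431 and 3124 in S0-Low and at 717, 138 and 150 in S0-Medium. Its mean was 10.0-fold lower in S0-Medium (log2 fold change -3.32 ± 0.85, edgeR unadjusted p = 0.00128). With the filter on low counts, neither gene passed the Benjamini-Hochberg adjusted threshold of 0.05 in edgeR, with or without the replicate block. Cd34 was called lower by edgeR with no filter (adjusted p = 0.0104) and by DESeq2 (adjusted p = 0.0136).

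Across all tested genes, the edgeR fit, adjusted by Benjamini-Hochberg, called 0 genes higher and 0 genes lower at an adjusted p under 0.05 (0% in each direction, smallest adjusted p = 0.427). Before adjustment, 295 genes were higher in S0-Medium with p under 0.05 (1.78% of tested genes) and 244 were lower (1.47%). With only the compared libraries in the edgeR fit, 234 were higher and 562 lower before adjustment, and again 0 passed the adjusted threshold. Among the 295, 77 had 0 counts in every S0-Low library and 156 reached a mean of 100 normalised counts in the higher population. Among the 244, 4 had 0 counts in every S0-Medium library and 215 reached that mean. The 3 values of S0-Medium were all above the 3 of S0-Low for 5.20% of tested genes, and all below for 6.65%. S0-Medium was the higher library in all 3 same-numbered pairs for 18.5% of tested genes and the lower in all 3 for 16.8%. Libraries with the same replicate number deviated together in both populations, and with the replicate number as a block in the same edgeR fit, 22 genes rose (0.133% of tested genes) and 1 fell (0.00604%). DESeq2 with the block called 105 genes higher (0.634%) and 79 lower (0.477%), among them all 23 that edgeR called. These shares are of all tested genes, of which 2568 had no adjusted p in that fit.

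**Figure D1:**
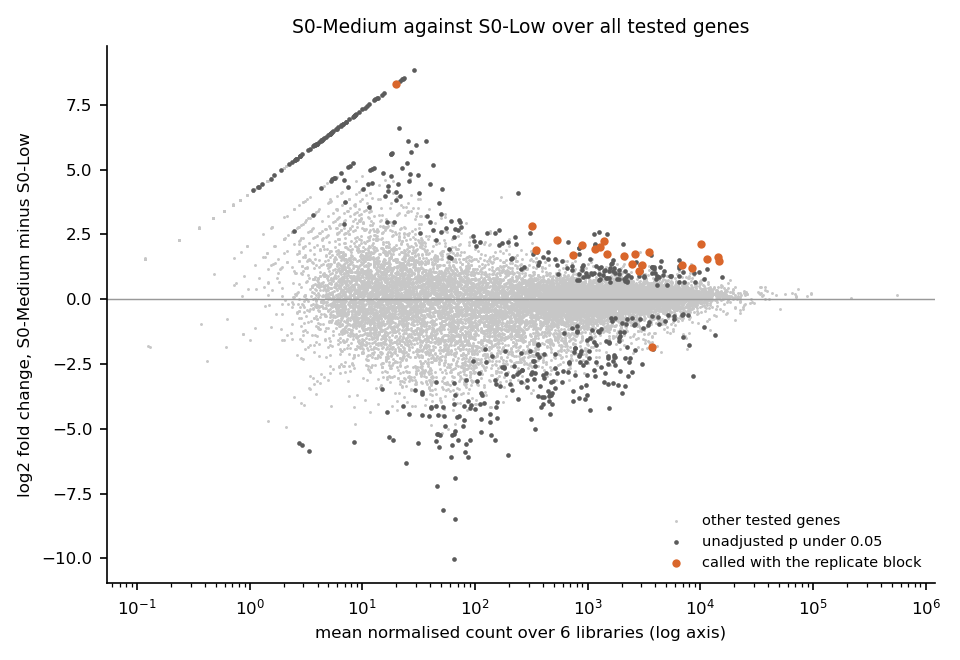
Log2 fold change of S0-Medium against S0-Low for each of 16555 tested genes, plotted against the mean normalised count over the 6 libraries on a log axis. Orange points are the 23 genes called with the replicate block, of which 22 lie above 0, and the straight upper edge is formed by genes with 0 counts in every S0-Low library, whose fitted fold changes depend on the prior count.

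Of the 22 genes that rose with the block (0.133% of tested genes), 9 were among the 22 tested genes of the red cell membrane and surface list. That list was chosen with earlier results of these data known, so the overlap is not an independent result. The 9 genes encode parts of the spectrin skeleton, its anchors and blood group proteins. Kel encodes the Kell blood group protein, a surface endopeptidase, and had the smallest p of all genes in the blocked fit. Epb42 encodes protein 4.2, which helps to fasten the skeleton to the anion exchanger. Ermap encodes the Scianna blood group protein. Alas2, the erythroid enzyme of the first step of heme synthesis, was the 1 gene of the heme list among the 22. The upstream sequences of these 4 genes are printed because each gene rose and each window holds a GATA-type motif, the kind of site that the erythroid factor GATA1 recognises. Each is the stretch from 250 to 51 bases before the transcript start of the RefSeq promoter table (GRCm38.p6), which for Kel and Ermap lies slightly inside the outermost end of the gene, read 5′ to 3′ on the strand of the gene, with capitals marking AGATAA or TGATAA on either strand (TTATCT and TTATCA are their reverse complements). The windows are chrX:150547167-150547366 on the plus strand for Alas2, chr6:41704376-41704575 on the minus strand for Kel, chr2:121036928-121037127 on the minus strand for Epb42 and chr4:119190046-119190245 on the minus strand for Ermap.
Alas2: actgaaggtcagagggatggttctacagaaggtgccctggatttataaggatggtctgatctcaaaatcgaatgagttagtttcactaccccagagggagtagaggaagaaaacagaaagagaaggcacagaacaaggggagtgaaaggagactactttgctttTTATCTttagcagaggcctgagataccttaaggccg
Kel: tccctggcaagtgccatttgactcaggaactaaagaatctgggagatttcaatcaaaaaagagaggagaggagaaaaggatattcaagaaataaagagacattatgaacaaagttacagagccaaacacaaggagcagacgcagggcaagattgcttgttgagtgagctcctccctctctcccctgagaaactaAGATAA
Epb42: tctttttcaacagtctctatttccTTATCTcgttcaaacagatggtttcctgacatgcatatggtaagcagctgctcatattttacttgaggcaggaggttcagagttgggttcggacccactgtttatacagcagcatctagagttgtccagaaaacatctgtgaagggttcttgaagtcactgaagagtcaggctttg
Ermap: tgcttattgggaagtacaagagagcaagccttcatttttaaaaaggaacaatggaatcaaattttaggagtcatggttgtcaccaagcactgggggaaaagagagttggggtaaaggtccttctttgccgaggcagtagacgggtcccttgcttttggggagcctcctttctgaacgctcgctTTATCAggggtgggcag

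One of these 2 motifs was found in this window for 6 of the 19 rising genes with a promoter entry (31.6%), namely the 4 printed, Slc30a10 and Trim10. Over all 27025 genes with an entry the share was 16.2%. A match describes the letters in the window and no binding was measured here. No entry was matched for 3 of the 22, among them Ank1 and Dmtn.

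Kel (chr6:41686329-41704334) was at 997, 1879 and 1773 normalised counts in S0-Low and at 4330, 5895 and 6310 in S0-Medium. Every S0-Medium library was above every S0-Low library, and the mean was 3.56-fold higher (blocked log2 fold change 1.87 ± 0.24 SE, n = 3 per population, edgeR adjusted p = 0.0331). Sptb, which encodes the beta chain of spectrin, was at 7599, 9121 and 6864 in S0-Low and at 22833, 20041 and 21919 in S0-Medium, a 2.75-fold higher mean (blocked edgeR adjusted p = 0.038). The replicates of each population lay close together, and the populations did not overlap.

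Ank1, which encodes ankyrin, the link between spectrin and band 3 of the membrane, was at 7178, 6852 and 6935 in S0-Low and at 20892, 18585 and 25902 in S0-Medium (3.12-fold, blocked edgeR adjusted p = 0.038). Its S0-Low values had the smallest relative spread among the called genes that had counts there. Add2, which encodes the beta chain of adducin, a protein that caps actin at the junctions of the skeleton, was at 3499, 4845 and 3457 in S0-Low and at 8930, 12181 and 8346 in S0-Medium. The 3 same-numbered pairs gave Add2 ratios of 2.55, 2.51 and 2.41. Dmtn, which encodes the actin-bundling protein dematin, was lower in level, with 183, 344 and 525 in S0-Low and 988, 862 and 1528 in S0-Medium.

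Epb42, Ermap and Rhd were highest in replicate 3 of both populations. Epb42 was at 147, 247 and 621 in S0-Low and at 671, 685 and 2944 in S0-Medium. Ermap was at 2796, 4678 and 10155 in S0-Low and at 6829, 12162 and 32298 in S0-Medium. Rhd, which encodes the Rh blood group protein, was at 165, 278 and 1043 in S0-Low and at 696, 774 and 5485 in S0-Medium. For Ermap and Rhd the populations overlapped, because the S0-Low value of replicate 3 was above S0-Medium values of other replicates, yet each replicate pair was higher in S0-Medium. The pair ratios were 2.44, 2.60 and 3.18 for Ermap and 4.23, 2.79 and 5.26 for Rhd. Rhd may share reads with Rhag, its close relative, so the split between them is uncertain.

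Alas2 (chrX:150547417-150570622) was at 122, 146 and 167 normalised counts in S0-Low and at 528, 513 and 599 in S0-Medium. The replicates of each population lay close together, and the mean was 3.78-fold higher (blocked log2 fold change 1.93 ± 0.30 SE, n = 3 per population, edgeR adjusted p = 0.038). Hebp1, which encodes a heme-binding protein, was at 537, 689 and 833 in S0-Low and at 1655, 1713 and 3534 in S0-Medium. Blvrb, which encodes a biliverdin reductase of heme breakdown, was at 1209, 1449 and 2818 in S0-Low and at 2422, 3227 and 5934 in S0-Medium. Blvrb overlapped between the populations, but its pair ratios of 2.00, 2.23 and 2.11 were nearly alike.

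Transport genes were also among the 22. Slc25a21, which encodes a mitochondrial carrier of oxodicarboxylates, was at 3597, 2067 and 5720 in S0-Low and at 16088, 8145 and 25229 in S0-Medium. Its pair ratios were 4.47, 3.94 and 4.41. Slc30a10, which encodes a manganese exporter, was even in S0-Low, at 540, 537 and 460, and uneven in S0-Medium, at 1073, 2019 and 3056. Trim10, a gene of the tripartite motif family that is transcribed in erythroid cells, was at 13.3, 140 and 83.3 in S0-Low and at 392, 512 and 775 in S0-Medium. Its mean was 7.10-fold higher, and its lowest value, in S0-Low replicate 1, made the pair ratios uneven (29.4, 3.66 and 9.30).

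Further genes that rose were Aplp2, Lmna, Tspan33, Tlcd4, Arhgef12, Fhdc1 and Cdkl1. Lmna, which encodes the A-type lamins of the nuclear envelope, was at 1209, 1146 and 1871 in S0-Low and at 2487, 3288 and 4976 in S0-Medium. Arhgef12, which encodes an exchange factor for the GTPase RhoA, was at 599, 558 and 278 in S0-Low and at 2190, 1781 and 1536 in S0-Medium. Aplp2, a relative of the amyloid precursor gene, was 2.47-fold higher, Tspan33, which encodes a tetraspanin, 3.18-fold, Tlcd4 3.38-fold and Fhdc1, a formin gene, 4.88-fold, and none of these 4 overlapped. Cdkl1, which encodes a kinase related to the cyclin-dependent kinases, had 0 counts in all 3 S0-Low libraries and 28, 23 and 93 counts in S0-Medium, so its mean was at least 39.4-fold higher than a floor of 3 counts over the S0-Low libraries together, and at least 17.9-fold without S0-Medium replicate 3.

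The single gene that fell with the block was Lcp1 (chr14:75131105-75230842), which encodes L-plastin, the actin-bundling protein of white blood cells. It was at 9434, 5929 and 2250 in S0-Low and at 3213, 1292 and 333 in S0-Medium. The populations overlapped, and every pair was lower in S0-Medium, with a 3.64-fold lower mean (blocked log2 fold change -2.08 ± 0.36 SE, n = 3 per population, edgeR adjusted p = 0.0491).

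Of the 23 genes, 19 did not overlap between the populations, against 5.20% and 6.65% of tested genes higher and lower. The 23 were picked by their p from these same libraries, so this count is no separate support for them. In the blocked fit all 23 lay between an adjusted p of 0.0331 and 0.0491, close to the threshold. Leaving out replicate number 1 or 2 from the blocked fit ended every call, and leaving out number 3 left 3 calls, 2 of them shared, Alas2 and Kel. Leaving out the shallow S0-Low replicate 3 alone ended every call, and leaving out S0-Medium replicate 1 alone left 7, with Epb42, Ermap, Kel and Lcp1 shared. The direction of all 23 was the same in each of these fits. All 23 already had 1 direction in all 3 same-numbered pairs, so these fits could hardly have reversed it.

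**Figure D2:**
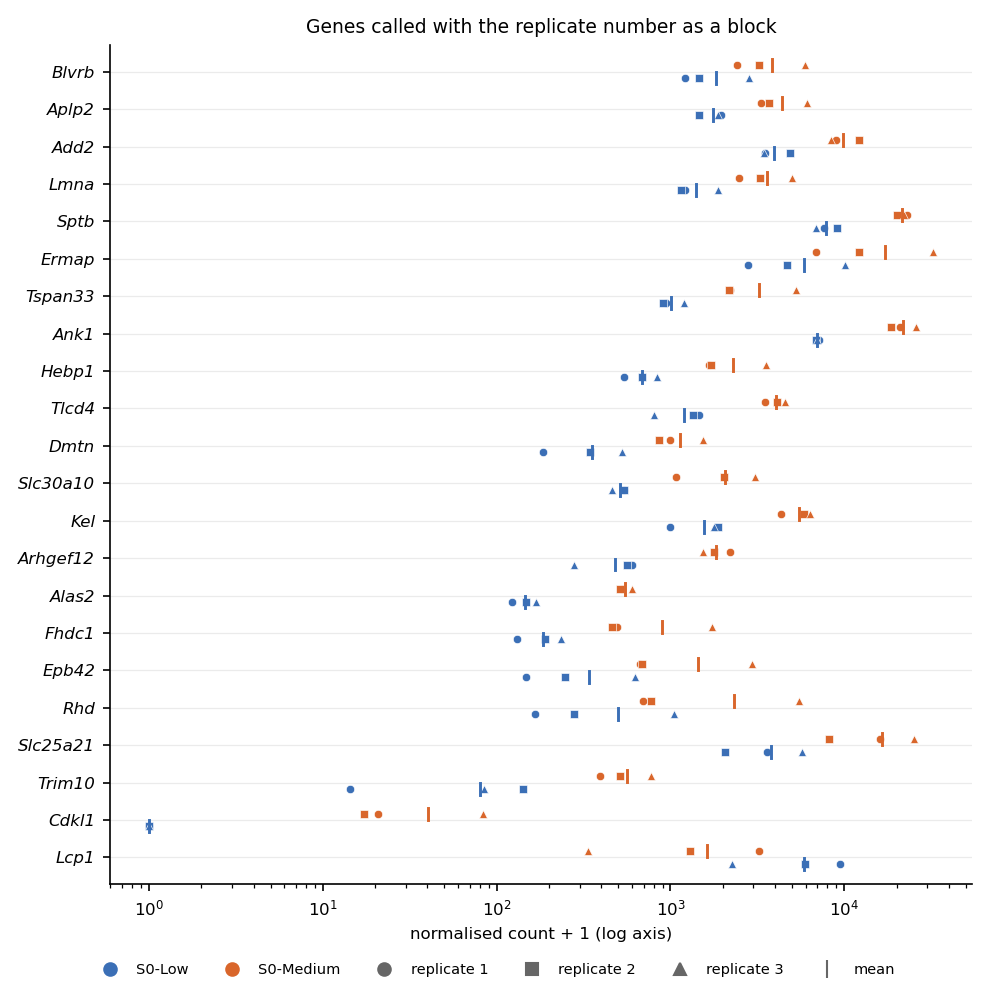
Normalised count plus 1 on a log axis in each of 3 S0-Low and 3 S0-Medium libraries for 21 of the 22 genes that rose and for Lcp1, which fell, with the replicate block (point shape, replicate; vertical bar, mean). S0-Medium points lie to the right of the same-numbered S0-Low points for all genes shown but Lcp1, and Blvrb, Ermap, Rhd and Lcp1 overlap between the populations.

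The gene lists were then described by their medians, beside a median log2 fold change of 0.03 over all tested genes. Over all tested genes, 1.78% were higher and 1.47% lower at an unadjusted p under 0.05 in edgeR. The populations did not overlap for 5.20% higher and 6.65% lower, and DESeq2 with the block called 0.634% higher and 0.477% lower. These shares belong beside the counts of every list below. The red cell membrane and surface list had a median of 1.23, with 20 of 22 tested genes higher in S0-Medium. At an unadjusted p under 0.05, 12 were higher and 0 were lower, 10 did not overlap, and DESeq2 with the block called 10 higher. Slc4a1, which encodes the anion exchanger band 3, was at 223, 651 and 465 in S0-Low and at 2014, 1458 and 2217 in S0-Medium. Rhag, the partner of Rhd, was 2.01-fold higher in mean. Epb41, which encodes protein 4.1, had a log2 fold change of only 0.25 ± 0.30 (SE). Without S0-Medium replicate 3 the median of this list was 0.53.

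Globin genes had the highest median of the lists, 2.55 over 7 tested genes, all of them higher in S0-Medium and 6 with an unadjusted p under 0.05. Hba-a1, an adult alpha globin gene, was at 137, 401 and 551 in S0-Low and at 521, 1160 and 4843 in S0-Medium. Hbb-b1, an adult beta globin gene, was at 115, 462 and 740 in S0-Low and at 571, 1265 and 3880 in S0-Medium. In both genes replicate 3 was the highest and replicate 1 the lowest of each population, so the populations overlapped while each pair was higher in S0-Medium. Hba-a1 and Hba-a2, and likewise Hbb-b1 and Hbb-b2, are near-identical copies whose reads can be split between them, so single values are uncertain. The embryonic genes Hbb-bh1 and Hba-x had 0 counts in every S0-Low library, and in S0-Medium 181 of the Hbb-bh1 counts were in replicate 3, against 11 and 7 in replicates 1 and 2. Both could thus pass the filter only through other populations, yet both count in the median, in the 7 and in the 6. Log2 fold changes of the other tested globin genes ran from 1.96 (Hbb-b2) to 2.59 (Hba-a1). With the block, edgeR called none of the 7, with Hba-a2 nearest (adjusted p = 0.0562), whereas DESeq2 called 5 of them higher. Without S0-Medium replicate 3 the median was 1.18.

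Heme synthesis genes had a median of 1.10, with 12 of 13 tested genes higher in S0-Medium and 7 of them at an unadjusted p under 0.05. DESeq2 with the block called 4 members higher. Cpox, which encodes coproporphyrinogen oxidase, was at 5484, 9364 and 6011 in S0-Low and at 12796, 21196 and 13299 in S0-Medium, with pair ratios of 2.33, 2.26 and 2.21 (blocked edgeR adjusted p = 0.0807). Ppox, the oxidase of the next step, was at 657, 1018 and 409 in S0-Low and at 1279, 1491 and 2273 in S0-Medium. Alad, which encodes the enzyme that makes the pyrrole ring, was higher in every pair but overlapped between populations (log2 fold change 1.10 ± 0.46, SE). Uros and the mitochondrial glycine carrier gene Slc25a38 had log2 fold changes of 1.03 ± 0.75 and 1.37 ± 0.65, and that of Uros turned to -0.10 without S0-Medium replicate 3. Alas1, the housekeeping counterpart of Alas2, was the 1 lower member, at 1473, 1691 and 1344 in S0-Low and at 903, 1118 and 1254 in S0-Medium. It did not overlap, yet its fitted log2 fold change of -0.46 ± 0.94 (SE, edgeR unadjusted p = 0.631) was within its error. That error also carries the spread within the other erythroid populations of the fit. Without S0-Medium replicate 3 the median of the list was 0.42.

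Iron genes had a median of 0.59, with 13 of 17 higher (11 when libraries were scaled by their totals), 4 of them at an unadjusted p under 0.05, and 6 without overlap. The 4 genes below that unadjusted p were Tfrc, Tfr2, Fth1 and Abcb10. With the block, edgeR called none of the list and DESeq2 called 2 higher. Tfr2, which encodes a second transferrin receptor that also associates with the Epo receptor, was at 863, 765 and 1058 in S0-Low and at 1443, 1537 and 4018 in S0-Medium. Fth1, the ferritin heavy chain gene, was at 7374, 9537 and 7134 in S0-Low and at 8344, 16858 and 15827 in S0-Medium. Abcb10, which encodes a mitochondrial transporter that steadies the iron importer mitoferrin, was at 1763, 1797 and 1475 in S0-Low and at 3192, 2661 and 6731 in S0-Medium. Slc25a37, the gene of mitoferrin itself, was at 926, 1610 and 1437 in S0-Low and at 2475, 2717 and 3048 in S0-Medium. Slc11a2 and Steap3, which encode the endosomal iron transporter and ferrireductase, had log2 fold changes of 0.70 ± 0.36 and 0.59 ± 0.33 (SE) and did not overlap. The exporter gene Slc40a1 had 1.23 ± 0.59. Without S0-Medium replicate 3 the median was 0.25.

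Among erythroid transcription factors the median was 0.30 over 18 tested genes, with 13 higher and 1 of them, Sox6, at an unadjusted p under 0.05. Sox6, whose product represses embryonic globin genes, was at 354, 510 and 1467 in S0-Low and at 2806, 1170 and 6112 in S0-Medium (blocked edgeR adjusted p = 0.0676), and was the 1 member that DESeq2 called with the block. Gata1 was at 2585, 3685 and 6649 in S0-Low and at 4028, 5224 and 7787 in S0-Medium. Klf1, the erythroid Krüppel-like factor gene, was at 2462, 3431 and 6571 in S0-Low and at 3972, 5991 and 14550 in S0-Medium. Both were already transcribed in S0-Low, were higher in every pair and overlapped between populations. Gfi1b was at 4067, 5540 and 7692 in S0-Low and at 4681, 7052 and 22284 in S0-Medium, and its log2 fold change was -0.01 without S0-Medium replicate 3. Bach1, which encodes a heme-sensing repressor, was lower without overlap, at 2978, 3109 and 8288 in S0-Low and at 2789, 2713 and 2971 in S0-Medium, where the S0-Low mean rested on replicate 3. The median was 0.05 without S0-Medium replicate 3 and 0.16 without S0-Low replicate 1.

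The Epo receptor and STAT5 list had a median of 0.35, with 11 of 13 higher. That median depended on single libraries: it was 1.07 without S0-Low replicate 2, 0.85 without S0-Medium replicate 3, 0.14 without S0-Low replicate 3 and 0.13 without S0-Medium replicate 2. Epor was at 944, 1832 and 1619 in S0-Low and at 1811, 3052 and 6939 in S0-Medium (log2 fold change 1.43 ± 0.53 SE, edgeR unadjusted p = 0.0167), and was the 1 member with an unadjusted p under 0.05. Erfe, which encodes erythroferrone, an Epo-induced hormone that lowers hepcidin, was at 136, 220 and 0 in S0-Low and at 464, 516 and 37.3 in S0-Medium. Both replicate 3 libraries were low for Erfe, and both were the highest of their population for Gata1 and Klf1.

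**Figure D3:**
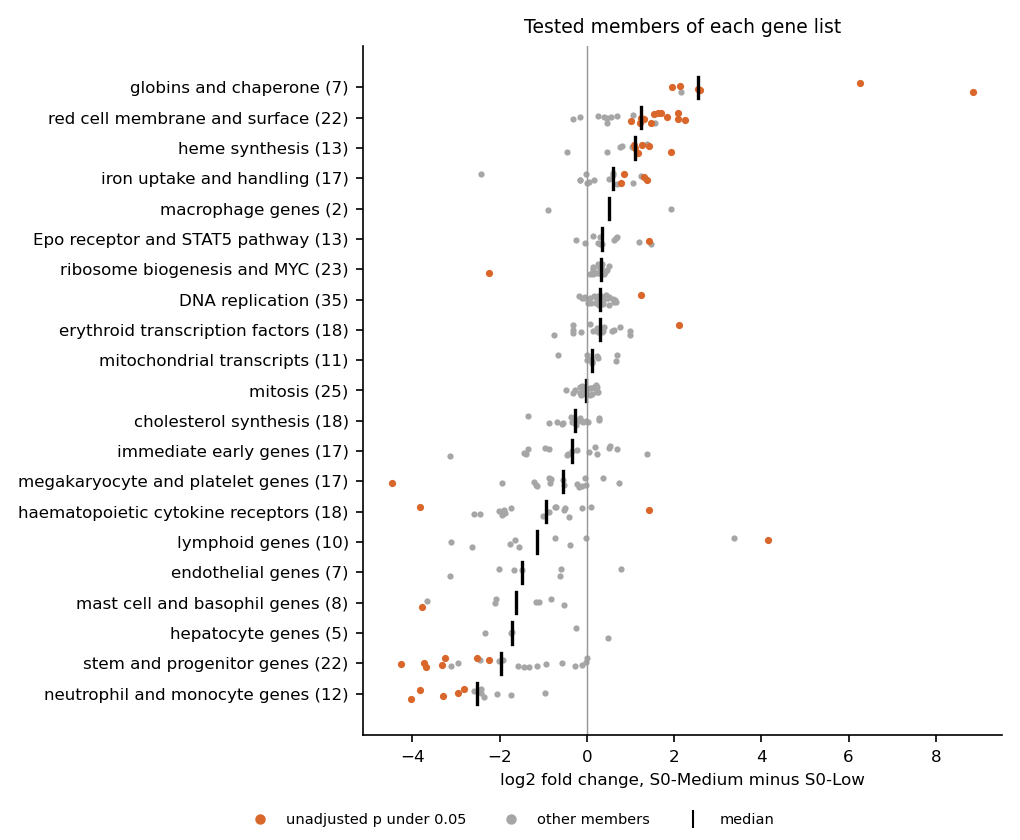
Log2 fold change of S0-Medium against S0-Low for the tested members of 21 gene lists, ordered by median, with the number of tested genes in parentheses (black bar, median; orange, unadjusted p under 0.05; grey, other members; points are shifted up or down at random to be visible). Medians run from -2.51 for neutrophil and monocyte genes to 2.55 for globins.

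Stem and progenitor genes lay on the other side. All 22 tested members had a log2 fold change below 0, with a median of -1.98, although that of Kit was -0.12 and that of Myb -0.28. At an unadjusted p under 0.05, 7 were lower and 0 higher, and 11 did not overlap. With the block, DESeq2 called 5 lower and edgeR none. Mecom, which encodes the stem cell factor EVI1, was at 3648, 984 and 1364 in S0-Low and at 279, 21.9 and 12.4 in S0-Medium, 19.1-fold lower in mean (blocked edgeR adjusted p = 0.077, DESeq2 with the block 2.5e-07). Hlf, the gene of a leucine zipper factor of stem cells, was at 2837, 990 and 1695 in S0-Low and at 277, 87.5 and 65.7 in S0-Medium. Hoxa9 was at 1151, 720 and 159 in S0-Low and at 100, 40.2 and 11.5 in S0-Medium. Cd93, Erg and Mycn were the other members below the unadjusted threshold besides Cd34, with log2 fold changes of -3.25 ± 1.20, -2.53 ± 0.84 and -2.25 ± 0.88 (SE).

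Several regulators of early progenitors were at high levels in both populations. Kit, the receptor of stem cell factor on which early erythroid cells also depend, was at 12487, 9744 and 22181 in S0-Low and at 11989, 10184 and 18615 in S0-Medium, with its log2 fold change of -0.12 ± 0.88 within its error. Its sign turned when S0-Low replicate 3 or S0-Medium replicate 2 was left out. Myb was at 21079, 22490 and 34379 in S0-Low and at 17695, 17335 and 29322 in S0-Medium, lower in each pair but overlapping, and its log2 fold change was 0.02 in the blocked fit without S0-Low replicate 3. Gata2, the progenitor GATA factor, was at 7646, 8886 and 5109 in S0-Low and at 5310, 3531 and 2464 in S0-Medium (log2 fold change -0.94 ± 1.03 SE). Flt3, a receptor of early lymphoid and myeloid progenitors, was at 4385, 3007 and 1553 in S0-Low and at 1437, 169 and 25.7 in S0-Medium.

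Neutrophil and monocyte genes had the lowest median, -2.51, with all 12 tested members lower in S0-Medium, 5 of them at an unadjusted p under 0.05, and 7 without overlap. With the block, DESeq2 called 3 lower and edgeR none. Mpo, which encodes myeloperoxidase, was at 22457, 13090 and 9915 in S0-Low and at 4914, 700 and 264 in S0-Medium, 7.73-fold lower in mean (log2 fold change -2.95 ± 0.98 SE, edgeR unadjusted p = 0.00829). Cebpa, the master factor of the myeloid lineage, was at 2011, 1615 and 1601 in S0-Low and at 416, 93.2 and 21.3 in S0-Medium. Csf3r, the receptor of the granulocyte colony-stimulating factor, was at 1730, 1131 and 2477 in S0-Low and at 306, 36.7 and 32.8 in S0-Medium. Lyz2 and Ctsg, which encode lysozyme and cathepsin G, had log2 fold changes of -4.03 ± 1.34 and -2.82 ± 1.17 (SE). The summed level of the 20 matched genes ran from 17812 to 30044 in S0-Low and was 7108, 1163 and 640 in S0-Medium, so replicate 1 was again the highest S0-Medium library. Itgam, which encodes the CD11b used in the lineage stain, and Irf8 had 0 counts in all 6 libraries. By contrast, Itga2b, which encodes the CD41 of the same stain, passed the filter on low counts. Its log2 fold change was -0.01 (edgeR unadjusted p = 0.983). The part of cells of other lineages in the differences between the populations was not tested. Without S0-Medium replicate 1 the medians were -4.37 for this list and -2.64 for stem and progenitor genes.

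**Figure D4:**
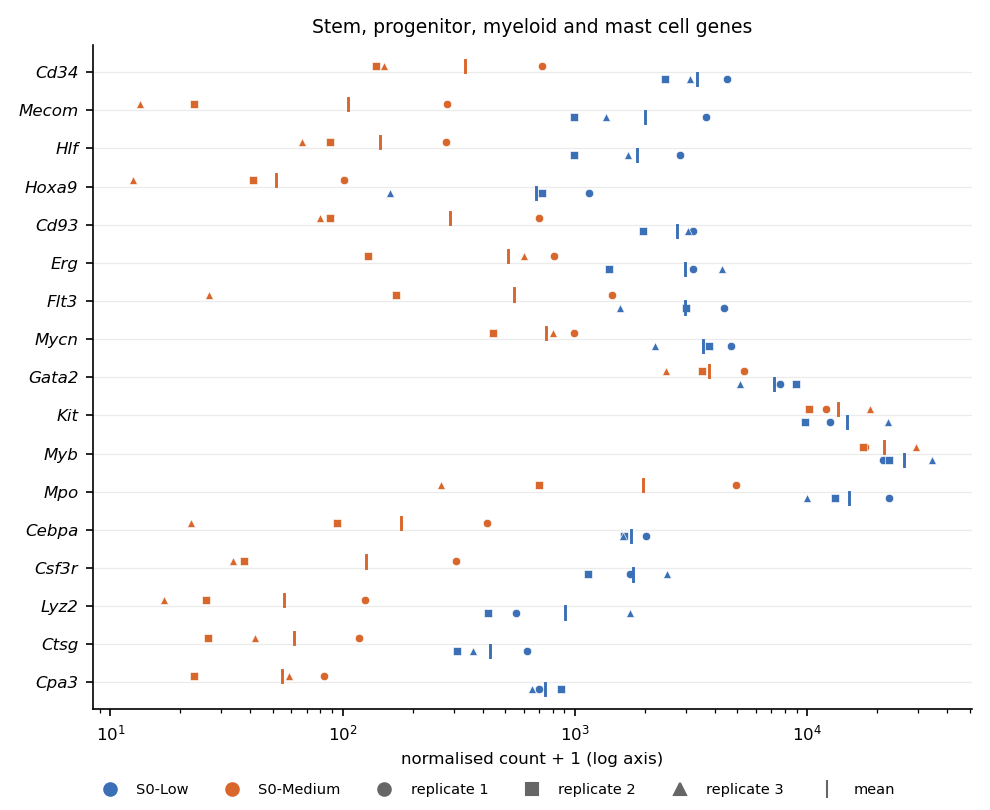
Normalised count plus 1 on a log axis in each of 3 S0-Low and 3 S0-Medium libraries for stem, progenitor, myeloid and mast cell genes (point shape, replicate; vertical bar, mean). S0-Medium replicate 1 is the rightmost S0-Medium point for most of these genes, as for Cd34 at 717 against 138 and 150, while Kit and Myb lie at similar levels in both populations.

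The lists of other cell types gave these values. Mast cell and basophil genes had a median of -1.62 over 8 tested members, all lower, and their summed level ran from 1932 to 4384 in S0-Low and from 618 to 2034 in S0-Medium. Cpa3, which encodes mast cell carboxypeptidase, was at 700, 865 and 654 in S0-Low and at 81.7, 21.9 and 57.7 in S0-Medium, and DESeq2 called it lower (adjusted p = 5.9e-06 without and 2.6e-05 with the block), whereas edgeR with the block did not (adjusted p = 0.451). Mcpt4, Fcer1a, Prss34, Tpsb2 and Tpsab1 of this list had 0 counts in all 6 libraries. Other members passed the filter, among them Ms4a2, Hpgds and Hdc, with log2 fold changes of -3.67, -2.11 and -2.08. Megakaryocyte and platelet genes had a median of -0.55 over 17, and their sum ran from 28530 to 31919 in S0-Low and was 31008, 13736 and 12648 in S0-Medium. Within that list Fli1, a factor of megakaryocytes, overlapped between the populations, and Selp, which encodes P-selectin, was the 1 member with an unadjusted p under 0.05, with a mean of 65.5 in S0-Low and 2.82 in S0-Medium.

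Lymphoid genes had a median of -1.15 over 10 tested members (-0.71 without S0-Low replicate 2, -1.90 without S0-Medium replicate 1 and -0.53 without S0-Medium replicate 3), with a sum from 1657 to 2014 in S0-Low and from 223 to 1606 in S0-Medium, and Cd3e and Rag1 had 0 counts in all 6. Igll1, the 1 lymphoid gene with an unadjusted p under 0.05, was higher in S0-Medium but scarce, at 12.7, 5.65 and 78.1 against 0, 4.54 and 0. Endothelial genes had a median of -1.49 over 7, hepatocyte genes -1.71 over 5 and macrophage genes 0.51 over 2. Without S0-Low replicate 3 the endothelial and hepatocyte medians were -0.58 and -0.84, and with the replicate block the endothelial median was -0.91. The macrophage median ranged from -1.09 without S0-Medium replicate 1 to 1.91 without S0-Low replicate 1, so its sign rested on single libraries (0.26 without S0-Low replicate 2, 0.01 without S0-Low replicate 3, 1.02 without S0-Medium replicate 3). Their sums were at most 8155, 390 and 95.7 normalised counts in any of the 6 libraries, and C1qa and C1qc of the macrophage list were at 0 in all 6.

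Cytokine receptor genes had a median of -0.93 over 18 tested members, with 16 lower and 9 lower without overlap, and of -1.53 with the replicate block and -1.83 without S0-Medium replicate 1. Epor was the 1 higher member and Csf3r the 1 lower member with an unadjusted p under 0.05.

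Lists of cell division, growth and general metabolism came next. DNA replication genes had a median of 0.31, with 31 of 35 higher (30 with library totals) and 14 higher in all 3 pairs (against 18.5% of tested genes), but 1 of them, Ccne1, had an unadjusted p under 0.05. Ccne1, which encodes cyclin E1 of the start of S phase, was at 2590, 3516 and 783 in S0-Low and at 3249, 6601 and 6489 in S0-Medium. The pair medians of the replication list were -0.07, 0.16 and 0.96, so replicate 3 differed from the others. The list median was 0.16 without S0-Low replicate 3 and 0.20 without S0-Medium replicate 3. Mitosis genes had a median of -0.03, with 11 of 25 higher and 0 with an unadjusted p under 0.05, and ran from -0.07 without S0-Medium replicate 2 to 0.06 without S0-Low replicate 2, changing sign also without S0-Medium replicate 1 (0.04). The mitosis median was -0.06 with the replicate block, -0.09 with library totals and -0.11 with RLE size factors, another scaling. Ribosome biogenesis and MYC genes had a median of 0.32, with 22 of 23 higher, yet only Mycn, which was lower, had an unadjusted p under 0.05. Myc itself was at 20744, 27961 and 17014 in S0-Low and at 21650, 28092 and 23045 in S0-Medium, and its log2 fold change was -0.02 without S0-Low replicate 3. The median of the list was -0.02 without S0-Low replicate 3 and 0.02 without S0-Medium replicate 2, against 0.52 without S0-Low replicate 2 and 0.49 without S0-Medium replicate 3.

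Cholesterol synthesis genes had a median of -0.27, with 15 of 18 lower and 0 with an unadjusted p under 0.05. The median turned to 0.02 without S0-Medium replicate 3, and was otherwise between -0.16 without S0-Low replicate 1 and -0.49 without S0-Medium replicate 2 (-0.41 without S0-Medium replicate 1, -0.48 without S0-Low replicate 3). Immediate early genes, which are switched on quickly by outside stimuli, had a median of -0.34 over 17, and mitochondrial transcripts a median of 0.11 over 11. No member of either list had an unadjusted p under 0.05. The immediate early median was 0.02 without S0-Low replicate 2, -0.09 without S0-Medium replicate 3 and -0.18 without S0-Low replicate 1. The mitochondrial median turned to -0.11 without S0-Low replicate 1 and -0.19 without S0-Medium replicate 2, and was 0.17, 0.21, 0.29 and 0.36 without S0-Low replicate 3, S0-Medium replicate 3, S0-Medium replicate 1 and S0-Low replicate 2.

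The 10 largest higher genes were taken from 116 that did not overlap, had the same direction in every pair, an unadjusted p under 0.05 and a mean of at least 100 in the higher population. A scarce gene could thus pass through the population where it was high. The 10 were Myh7b, Popdc2, Trim10, 2600006K01Rik, Acsl6, Ccdc74a, Hba-a2, Rgcc, Pkhd1l1 and Paqr9. Myh7b, a myosin heavy chain gene, was at 18.8, 24.2 and 0 in S0-Low and at 163, 139 and 82.6 in S0-Medium. Popdc2, which encodes a cyclic AMP-binding membrane protein, was at 7.84, 28.8 and 0 against 93.0, 122 and 115. Acsl6, a long-chain acyl-CoA synthetase gene, was at 51.8, 79.5 and 0 against 194, 250 and 407. All 3 were at 0 in S0-Low replicate 3, as were 5 of the 10. Rgcc, a cell cycle regulator gene, and Pkhd1l1, a relative of the polycystic kidney gene, were higher in level, at 371, 507 and 144 against 814, 1334 and 3724 for Rgcc and 174, 452 and 715 against 817, 1438 and 5304 for Pkhd1l1. S0-Medium replicate 3 held the highest value for 8 of the 10.

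The 10 largest lower genes, from 171 of the same kind, were A130006I12Rik, Tfap2a, Chad, Cd200r3, Ccl4, Nkx2-3, Plscr4, Peli3, Esrrg and Clec4e. In all 10 the highest value was in S0-Low replicate 3 and S0-Medium replicate 3 was at 0. A130006I12Rik was at 10.2, 10.6 and 371 in S0-Low and had 0 counts in every S0-Medium library, which makes its S0-Low mean at least 173-fold higher than a floor of 3 counts over S0-Medium, a bound that fell to 13.7-fold without S0-Low replicate 3. Cd200r3, which encodes a receptor of basophils and mast cells, was at 28.2, 25.0 and 1106 in S0-Low and at 9.86, 7.76 and 0 in S0-Medium. Nkx2-3 and Clec4e were more even, at 149, 111 and 230 against 5.64, 4.24 and 0, and at 182, 317 and 321 against 11.3, 9.88 and 0. Clec4e encodes a pattern receptor of myeloid cells and Ccl4 a chemokine, at 73.7, 42.4 and 253 in S0-Low and 7.05, 0 and 0 in S0-Medium.

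Whether a gene moved differently in this step and in the next, from S0-Medium to S1 (CD71-high late CFU-E), was tested as a difference of both steps. At an adjusted p under 0.05, edgeR found 0 genes (smallest adjusted p = 1), with 165 genes for which the first step was the more positive and 18 for which the second was at an unadjusted p under 0.05, and DESeq2 found 1. Of the 22 genes that rose, all had a higher mean in S1 than in S0-Medium, and 20 went on upward through S1 and then S2 and S3, the Ter119-positive stages. The exceptions were Aplp2, with means of 7588, 8625 and 7556 in S1, S2 and S3, and Tlcd4, with 9558, 10921 and 7358. Alas2 had means of 3742, 13379 and 103511. Cd34 went on to 4.84 in S1, while Lcp1 stood at 324 in S1, 184 in S2 and 1981 in S3. Both steps share the S0-Medium libraries, so their values are given side by side and not as independent results.

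**Figure D5:**
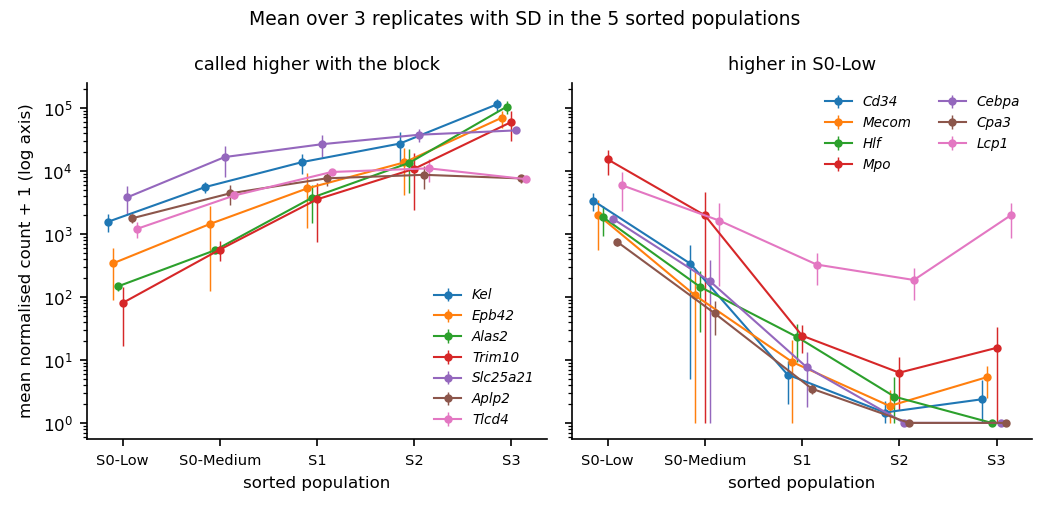
Mean normalised count plus 1 on a log axis over 3 replicates in the 5 sorted populations, with the SD as error bars (cut at 0 where the SD exceeds the mean), for 7 genes that rose with the block and 7 that were higher in S0-Low. The genes on the left climb from S0-Low to S1, where Aplp2 and Tlcd4 level off, and those on the right lie lower in S0-Medium and lower still in S1.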

How the data were processed

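Nascent RNA of 18 libraries was quantified by the authors with Kallisto 0.43.0, per the labels against GRCm38, and deposited as whole-number counts per gene, not normalised and not pooled. Coordinates and promoters are from RefSeq GRCm38.p6. The kit was stranded, and its PCR reads carry no molecular identifiers. The 15 erythroid libraries entered one model of population in edgeR 4.0.16 (R 4.3.3) with TMM scaling, filterByExpr and quasi-likelihood tests (two-sided, threshold 0.05 after Benjamini-Hochberg adjustment). The contrast was S0-Medium minus S0-Low. The common biological coefficient of variation was 0.795. The study names DESeq2 for its tests, used here (1.42.0) as an alternative.

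Replicate numbers were taken as pairing the libraries: deviations from the population means of same-numbered S0-Low and S0-Medium libraries correlated at 0.295, 0.26 and 0.25 for replicates 1 to 3. The labels do not say what a number stands for. No pair of replicates agreed within sampling noise.

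Members and gene lists were chosen with earlier results of these data known. Genes named come from Tfrc and Cd34, up to 5 of each list by size of change plus its defining members, the 10 largest differences in each direction and the genes called with the block, and results for some of these are not reported here. Alternatives were other scaling, filters, tools and sets of libraries, the replicate block and leaving out replicates. The blocked fits without single libraries or with library totals were chosen after seeing the data. The steps were tested on simulated data. Floors (3 counts) cover counting error only, whereas each SE is from the fit and covers the spread between libraries in all populations fitted.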

Additional observations from a re-analysis of the deposited data

How the results depend on the processing

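Genes called depended on the fit. Against 0 higher and 0 lower genes, DESeq2 called 27 and 19, DESeq2 with the replicate block 105 and 79, edgeR with no filter 43 and 10, and edgeR with the replicate block 22 and 1. The blocked fit gave 3 and 0 without replicate 3 and 0 without replicates 1 or 2, and, in fits chosen after seeing the data, 3 and 4 without S0-Medium replicate 1 alone, 9 and 1 with library totals, all 10 shared, and 0 without S0-Low replicate 3 alone. Unequal steps were called for 1 gene by DESeq2 and 3 with no filter. For Cd34, log2 fold changes of -3.37 (DESeq2), -3.56 (DESeq2 with the block) and -3.33 (no filter) passed the threshold. The cause was not tested. Tfrc kept its direction and side of the threshold throughout. Over 92 other named genes and 1998 refitted values, 129 newly passed the threshold and 7 changed sign, in 5 genes: Kit was at 0.75 with the block without S0-Low replicate 3 and ranged from -0.45 to 0.28 with single libraries left out, Myb was at 0.02 with that block, and the ranges with single libraries left out were -0.01 to 1.32 for Gfi1b, -0.10 to 1.88 for Uros and -0.02 to 0.33 for Myc. In edgeR, the replicate block changed no call beyond its 23 genes. In DESeq2 it raised the calls from 46 to 184, and the 1 call of unequal steps was lost. Of 188 refitted list medians, 28 moved by more than the spread between pairs. A library of 9452476 counts limits what S0-Low replicate 3 shows of scarce genes.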
